A study of Homo sapiens with 58 samples.

Results

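The 36 genes described here encode proteins of blood coagulation, fibrinolysis and the complement system that hepatocytes make or regulate. They were listed by symbol and found among the 60675 Ensembl gene IDs of a table of RNA-seq counts, and all 36 had enough reads to be tested. RNA was sequenced from HepG2, a human hepatocellular carcinoma cell line that still makes many plasma proteins, after 24 h with 1 of 8 herbal extracts or with the solvent. The 58 libraries form 24 groups of extract and dose. Sayeok-tang and Bojungikgi-tang are multi-herb formulas extracted in water. The other extracts are single herbs in ethanol. They include fresh ginger (Zingiberis Rhizoma Recens) and dried ginger (Zingiberis Rhizoma), which appear under their common names. The rest are Coptidis Rhizoma, Pinelliae Tuber, Zizyphi Fructus and Scutellariae Radix.

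Doses were 500 (high), 100 (medium) and 20 (low) µg/mL, but Coptidis Rhizoma had 56 µg/mL as its medium and 11.2 µg/mL as its low dose. The vehicle group was DMSO, 0.1% by the sample labels and 2% by the series text. The vehicle, Sayeok-tang, fresh ginger, Pinelliae Tuber and Scutellariae Radix had 3 libraries per group, as did the medium and low doses of dried ginger. Bojungikgi-tang had 2 at every dose, dried ginger had 2 at the high dose, and Coptidis Rhizoma and Zizyphi Fructus had 1 per dose. The labels do not say whether libraries of a group came from separate cultures, so p-values measure the spread between libraries, which may be technical. Every library carries the same batch label. Sample names carry 5 prefixes, 1 for the vehicle and 4 for pairs of extracts, so that prefix and treatment cannot be told apart against the vehicle. Comparisons of doses of 1 extract, and of extracts that share a prefix, do not use the vehicle.

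Libraries held 22143845 to 31859981 expected counts. All 9 hepatocyte markers checked, albumin among them, were expressed in HepG2 at summed levels of 27640 to 41948 CPM, the counts scaled to 1000000 per library. Of 6 fibroblast markers, COL1A2 and DCN were at 0 in every library, and PDGFRB was expressed, at 9.93 ± 0.91 CPM in vehicle and 3.69 to 23.5 over all libraries. Summed, they were at 10.2 to 11.8 CPM in vehicle, 20.6 to 24.1 in high-dose fresh ginger and 3.85 to 4.90 in high-dose Scutellariae Radix. Of 5 endothelial markers only PECAM1 reached 1 CPM, at 3.24 ± 0.31 in vehicle. Of 6 leukocyte markers PTPRC and MS4A1 were at 0 in every library, and LYZ, CD68 and CD14 were expressed. The part of these markers in the results was not tested. Replicate 3 of low-dose Scutellariae Radix and replicate 3 of low-dose dried ginger stood apart from the other 2 of their groups, with a chi-square per gene of 13.67 to 17.18. Fits were also run without these and without the low-dose Zizyphi Fructus library, whose group has no other library to compare it with. The calls that changed without these 3 libraries are given beside the results or in the closing section on processing. Of the members not called in the main fit, only the fibrinogen chains were rechecked by name.

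Coagulation is a cascade of proteases that ends when thrombin cleaves fibrinogen to fibrin, fibrinolysis is the removal of fibrin by plasmin, and complement is a related cascade that marks and lyses microbes. The liver makes most of these proteins, and each cascade is held back by inhibitors made in the same cells. Fibrinogen is assembled from 3 chains whose genes sit side by side and are controlled by liver transcription factors and by the acute phase signal of interleukin 6.

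The sequences just upstream of the RefSeq starts of the 3 fibrinogen genes are shown because these genes moved together in the results that follow. FGB, FGA and FGG lie within 50.0 kb of chromosome 4 (GRCh38, GENCODE 29), FGB at chr4:154562956-154571086 on the plus strand, FGA at chr4:154583126-154590766 and FGG at chr4:154604134-154612967 on the minus strand. The stretches below are from RefSeq, build GRCh38.p14, and read 5′ to 3′ on the gene's strand. Those of FGA (chr4:154590767-154590902) and FGB (chr4:154562820-154562955) run from -160 to -25 from the RefSeq start, and that of FGG (chr4:154612681-154612710) from -54 to -25. The GENCODE 29 model of FGG begins further upstream than the RefSeq start, so the FGG stretch lies inside that model. Capitals mark matches to CTGGGA, the core of the interleukin 6 response element, on either strand (TCCCAG).
FGA: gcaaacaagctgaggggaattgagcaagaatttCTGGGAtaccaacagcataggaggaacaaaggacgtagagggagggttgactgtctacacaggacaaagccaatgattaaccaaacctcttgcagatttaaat
FGB: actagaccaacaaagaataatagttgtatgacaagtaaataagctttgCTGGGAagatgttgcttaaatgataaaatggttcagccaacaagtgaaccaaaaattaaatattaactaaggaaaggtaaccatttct
FGG: cagtcctggctaTCCCAGgagcttacataa
In the 250 bases before the start, FGA had CTGGGA at -127 to -122 and FGB at -112 to -107. FGG had it at -161 to -156 and at -42 to -37. Promoters of 29 of the 36 genes could be matched. CTGGGA was found in 12 of the 29 and in 28.78% of 27305 promoters of the same length. The C/EBP half-site GCAAT was in 8 of the 29 (21.53% of all), the HNF4 half-site AAAGTCC in 3 (3.2% of all) and the AP-1 motif TGANTCA in 1, PLAUR (6.6% of all). The searches covered both strands, and a match describes letters only.

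In vehicle-treated HepG2 the genes ranged over 3 orders of magnitude. Per kilobase of exon, FGG was highest at 287 ± 17 CPM per kb (SD, n = 3), followed by FGA at 251 ± 12 and C3, the central complement protein, at 211 ± 4.9. The library ranges of FGG and FGA did not overlap on this scale. SERPINF2, the plasmin inhibitor alpha-2-antiplasmin, followed at 165 ± 6.1 CPM per kb. Next came SERPINA5, the protein C inhibitor, at 97.5 ± 3.5 and FGB at 96.7 ± 2.5, which did not differ beyond their spread. F2 (prothrombin) was at 93.4 ± 2.0 CPM per kb.

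The lowest levels were those of PLG, PLAT and C6. PLG, which encodes plasminogen, had a vehicle mean of 0.782 ± 0.036 CPM and was below 1 CPM in 53 of 58 libraries. C6, a subunit of the membrane attack complex, had a vehicle mean of 0.906 ± 0.21 CPM and was below 1 CPM in 50 libraries. PLAT (tissue plasminogen activator) was below 1 CPM in 16 libraries, F13B (the carrier subunit of factor XIII) in 14 and KNG1 (kininogen) in 1. The other 31 genes were at 1 CPM or more in all 58 libraries. Counts behind the low genes are small, so their fold changes carry the largest standard errors.

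At high dose most of these genes were expressed at lower levels than in vehicle in 4 of the 6 extracts that had replicates. Of the 36 genes, 27 were called in high-dose Sayeok-tang, 4 higher and 23 lower, where 40.2% of all 13945 genes tested were called (20.3% higher and 19.9% lower). A called gene is one with an adjusted p below 0.05 in edgeR's quasi-likelihood test, adjusted by Benjamini-Hochberg over all genes tested in the comparison. High-dose fresh ginger gave 3 higher and 26 lower (47.9% of all genes called, 24.3% higher and 23.6% lower), high-dose dried ginger 6 higher and 23 lower (46.1%, 23.3% and 22.8%) and high-dose Scutellariae Radix 3 higher and 26 lower (56.7%, 28.7% and 28.1%). The median log2 fold change of the 36 genes was -0.38, -0.44, -0.40 and -0.40 in these 4 comparisons, and that of all genes tested was 0.00, 0.00, 0.00 and 0.01. In total RNA from a culture, loss of cells that express a gene and less of its RNA per cell cannot be told apart.

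High-dose Pinelliae Tuber gave 4 higher and 9 lower (15.7% of all genes called, 9.14% higher and 6.57% lower), with a median of -0.07. High-dose Bojungikgi-tang gave 1 higher and 5 lower (4.55%, 2.24% and 2.31%), with a median of -0.05, but 2 in all without the first of its 2 libraries. Both had fewer called genes over the whole transcriptome. With all libraries in the fit, the share of the 36 genes called (36.1% and 16.7%) was above that background in each. The background without the first Bojungikgi-tang library, where 2 of the 36 were called, is not given here.

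Lower doses called fewer of the genes. Medium-dose Scutellariae Radix gave 2 higher and 16 lower (18.3% of all genes called, 8.99% higher and 9.33% lower) and its low dose 1 higher and 7 lower (10.3%, 5.44% and 4.87%). Medium-dose fresh ginger gave 1 higher and 11 lower (11.3%, 6.63% and 4.66%), or 7 in all without the first vehicle library, and its low dose 1 higher, MBL2 (0.602%, 0.509% and 0.0932%). Medium-dose Sayeok-tang gave 1 higher and 4 lower (4.22%, 2.17% and 2.04%), which became 9 calls without the 3 libraries left out of the added fit, 3 without its own first library and 2 without the third vehicle library. Medium-dose dried ginger gave 5 lower (1.45%, 0.703% and 0.746%), or 3 without the third vehicle library.

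No gene of the 36 was called by edgeR in low-dose Sayeok-tang (0.0574% of all genes called, 0.0143% higher and 0.043% lower), medium-dose (0.0645% called, 0.0215% higher and 0.043% lower) and low-dose (0%) Bojungikgi-tang, low-dose dried ginger (2.12% called, 1.69% higher and 0.43% lower), or medium-dose (0.287% called, 0.122% higher and 0.165% lower) and low-dose (0.272% called, 0.237% higher and 0.0359% lower) Pinelliae Tuber. In that order, 4, 6, 3, 4, 4 and 5 of them had an unadjusted p below 0.05, and DESeq2 called 1 in low-dose Sayeok-tang and 0 in the others. All comparisons with the vehicle share its 3 libraries.

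**Figure D1:**
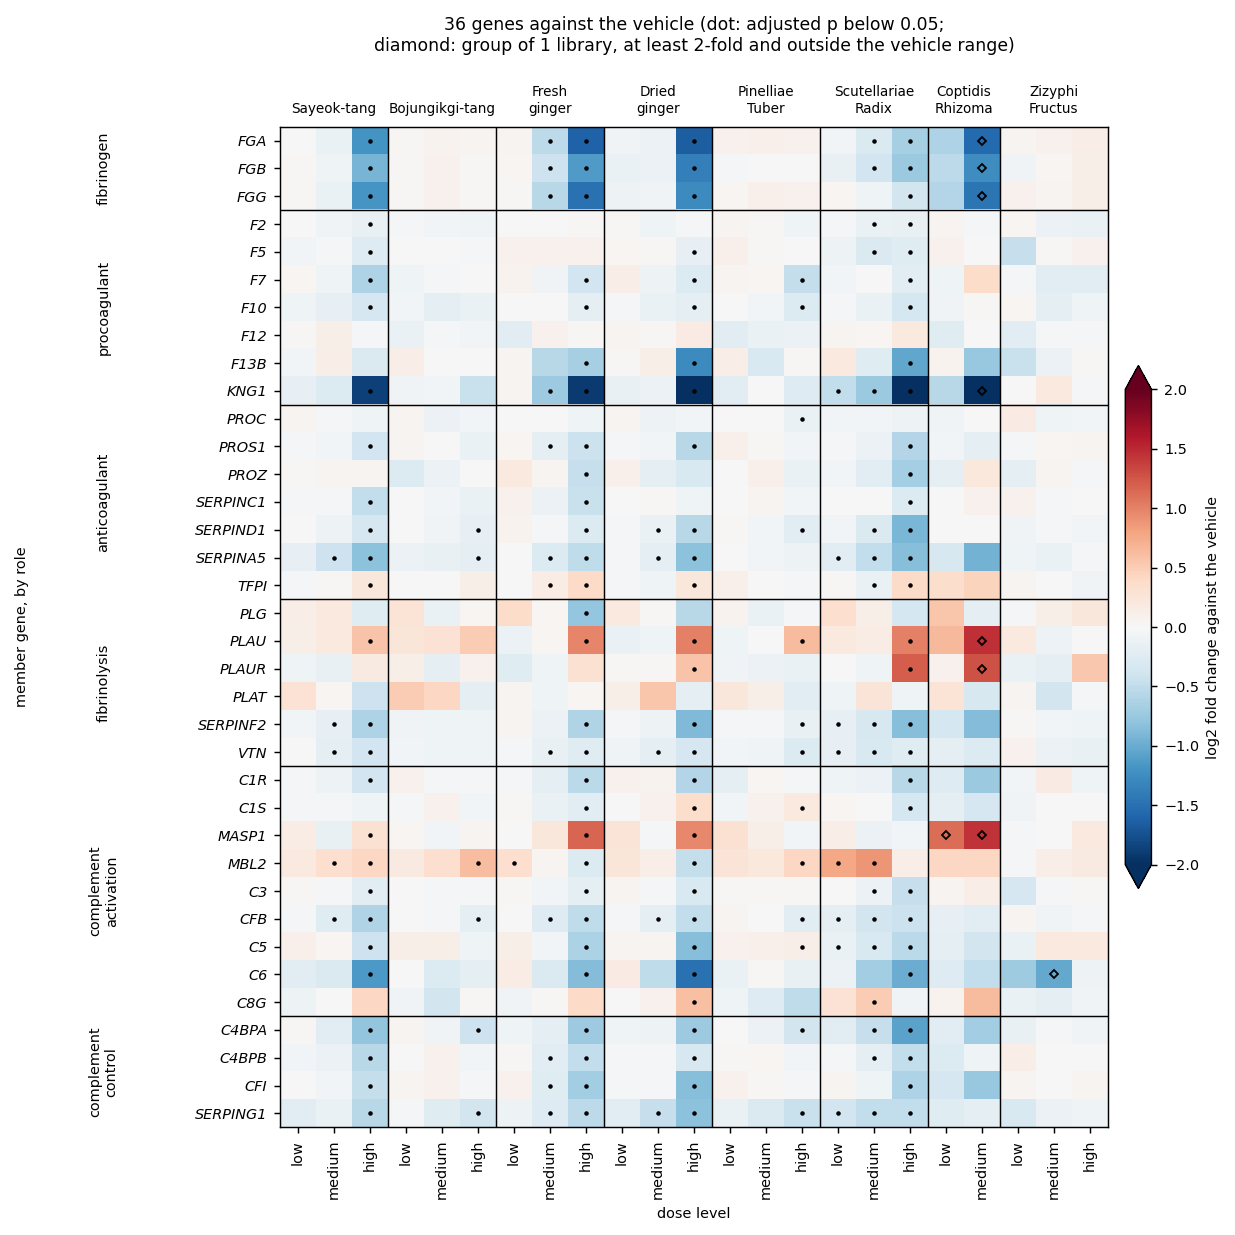
Log2 fold change of each of the 36 genes (rows, grouped by role) against the vehicle in the 23 treated groups (columns, by extract and dose); dots mark an adjusted p below 0.05 and diamonds, in groups of 1 library, a fold of at least 2 outside the vehicle range. KNG1 is the darkest blue row at the high doses of Sayeok-tang, both gingers and Scutellariae Radix and at the medium dose of Coptidis Rhizoma, where the fibrinogen rows are also blue (palest for FGG in Scutellariae Radix, -0.37) and the PLAU row is red.

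The dose comparison within an extract, which does not use the vehicle, gave like counts. High against low dose, Sayeok-tang had 4 genes higher and 25 lower (37.6% of all genes called, 18.4% higher and 19.3% lower), fresh ginger 5 and 26 (47.6%, 23.3% and 24.3%) and dried ginger 6 and 26 (47.4%, 23.2% and 24.3%). Scutellariae Radix had 3 and 25 (55.7%, 27.2% and 28.5%), Pinelliae Tuber 2 and 11 (10.1%, 5.09% and 4.98%) and Bojungikgi-tang 1 and 4 (1.69%, 0.81% and 0.875%). The Bojungikgi-tang count was 2 in all without the first high-dose or the second low-dose library.

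All 3 fibrinogen chains fell together at the high doses of Sayeok-tang, both gingers and Scutellariae Radix. FGA was at 1015, 942 and 1028 CPM in the vehicle libraries, at 434, 430 and 443 in high-dose Sayeok-tang, at 303, 339 and 329 in high-dose fresh ginger, at 319 and 316 in high-dose dried ginger and at 631, 623 and 632 in high-dose Scutellariae Radix. None of these groups overlapped the vehicle. The log2 fold changes of FGA were -1.19 ± 0.048 (SE; adjusted p = 1e-24), -1.62 ± 0.048 (9.9e-30), -1.65 ± 0.056 (1.5e-27) and -0.66 ± 0.047 (1.8e-16) in that order. High-dose Bojungikgi-tang, at 1002 and 1055 CPM, and high-dose Pinelliae Tuber, at 1040, 1073 and 1039, had FGA levels within or just above the vehicle range, and neither was called (0.05 ± 0.052 and 0.08 ± 0.047).

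FGB, the beta chain, was at 266, 254 and 266 CPM in vehicle. It was at 143, 133 and 137 CPM in high-dose Sayeok-tang, 116, 126 and 115 in fresh ginger, 102 and 102 in dried ginger and 151, 155 and 164 in Scutellariae Radix. Again no treated library reached the vehicle range, and the log2 fold changes ran from -0.74 ± 0.055 in Scutellariae Radix (adjusted p = 6.2e-16) to -1.36 ± 0.065 in dried ginger (3e-22). FGG, the gamma chain, was at 1071, 961 and 1062 CPM in vehicle, 473, 445 and 448 in high-dose Sayeok-tang, 339, 384 and 377 in fresh ginger, 424 and 427 in dried ginger and 782, 812 and 809 in Scutellariae Radix. Its fall was largest in fresh ginger (-1.49 ± 0.066, adjusted p = 1.9e-23) and smallest in Scutellariae Radix (-0.37 ± 0.064, 4.2e-06).

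The medium doses differed by extract. Medium-dose fresh ginger lowered all 3 chains, with FGA at 670, 720 and 680 CPM (-0.53 ± 0.047, adjusted p = 5.8e-12), and medium-dose Scutellariae Radix lowered FGA (-0.29 ± 0.047, 9.2e-06) and FGB (-0.39 ± 0.054, 4e-07). In medium-dose Sayeok-tang and dried ginger the 3 log2 fold changes lay between -0.14 and -0.07, and none was called. Without the 3 libraries left out of the added fit, FGA (-0.14, adjusted p = 0.018) and FGG (-0.15, 0.04) were called lower in medium-dose Sayeok-tang. At low doses no chain was called in any of the 6 extracts with replicates, except that FGB in low-dose Scutellariae Radix was called without those libraries (-0.21, adjusted p = 0.0065).

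Summed over the 3 chains, fibrinogen RNA took 2289 ± 113 CPM of a vehicle library (SD, n = 3). The sum was 1028 ± 21 CPM in high-dose Sayeok-tang, 809 ± 47 in high-dose fresh ginger, 845 ± 0.66 (n = 2) in high-dose dried ginger and 1586 ± 20 in high-dose Scutellariae Radix. The chains did not fall by equal amounts. Per kilobase of exon, FGG made up 45.1% ± 0.53 of the 3-chain sum in vehicle, 50.1% ± 0.20 in high-dose dried ginger and 50.7% ± 0.52 in high-dose Scutellariae Radix. FGB made up 15.2% ± 0.36 in vehicle and 19.3% ± 0.79 in high-dose fresh ginger.

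**Figure D2:**
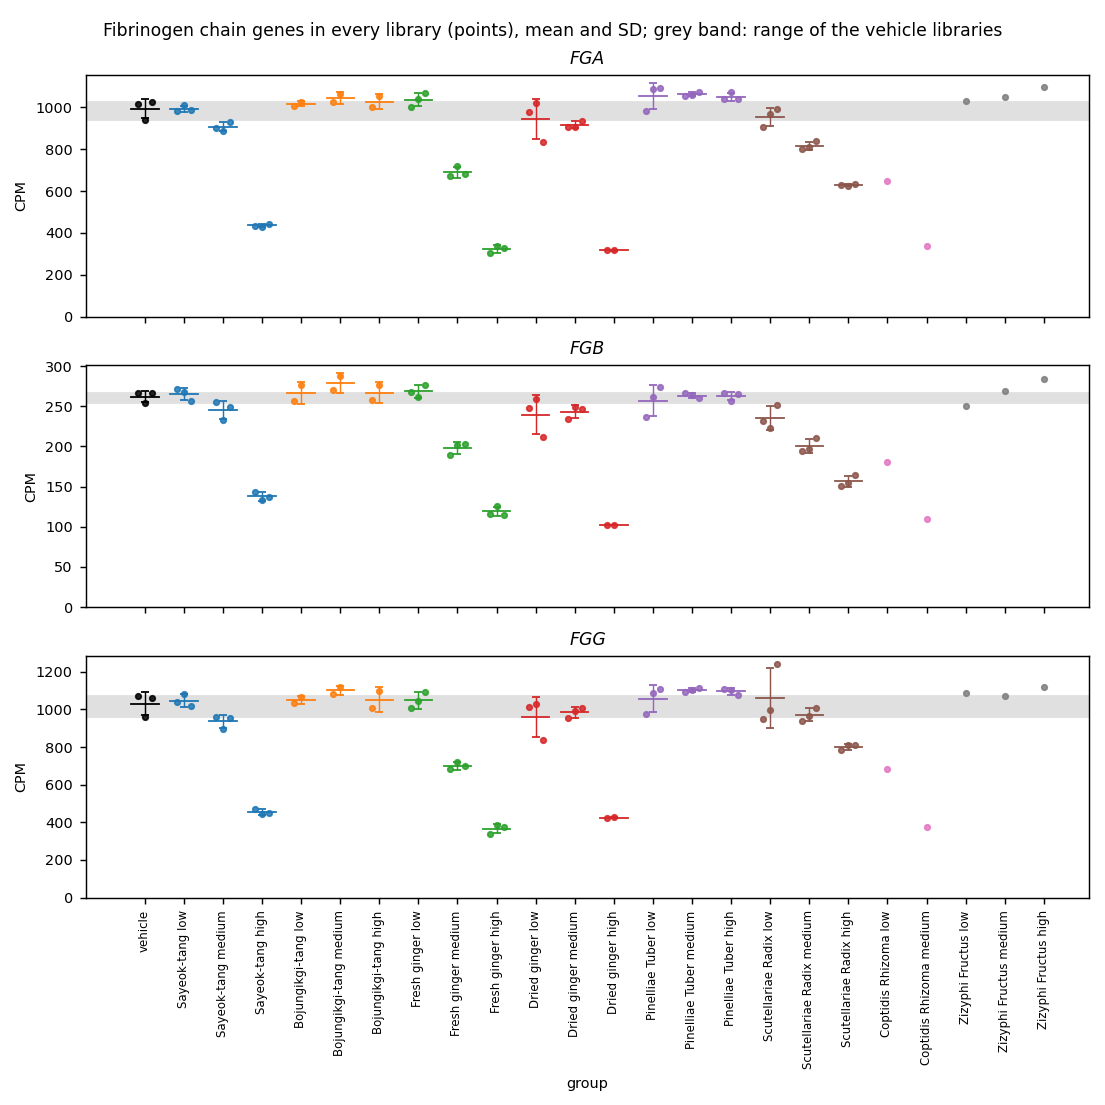
CPM of FGA, FGB and FGG (vertical axes) in every library of the 24 groups (horizontal axis), with the mean and SD of groups that have replicates and a grey band for the range of the 3 vehicle libraries. The points of the 4 high doses named in the text and of medium-dose Coptidis Rhizoma lie far under the band; the third library of low-dose Scutellariae Radix has FGG at 1241 CPM, above it.

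Of the 7 procoagulant genes, KNG1 had the largest log2 fold change at the high doses of Sayeok-tang, both gingers and Scutellariae Radix, where F2, F5, F7, F10 and F12 were between -0.61 and 0.19. No member of this group rose in any comparison with the vehicle. KNG1 (chr3:186717276-186744410) encodes high molecular weight kininogen, the cofactor of contact activation and the source of bradykinin. It was at 7.27, 6.65 and 5.97 CPM in vehicle, 1.64, 1.64 and 2.11 in high-dose Sayeok-tang, 1.51, 1.71 and 2.08 in fresh ginger, 1.61 and 1.61 in dried ginger and 1.40, 1.19 and 0.995 in Scutellariae Radix. All 11 treated libraries were below every vehicle library, by log2 fold changes of -1.87 ± 0.14 (adjusted p = 4.1e-15), -1.91 ± 0.14 (1.7e-15), -2.04 ± 0.17 (7.8e-14) and -2.46 ± 0.15 (2e-18).

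KNG1 also followed dose in Scutellariae Radix. Its libraries were at 4.72, 4.73 and 4.69 CPM at the low dose (-0.49 ± 0.12, adjusted p = 0.0054) and at 4.12, 3.93 and 3.79 at the medium dose (-0.75 ± 0.12, 1.2e-05). In medium-dose fresh ginger it was at 3.20, 4.10 and 4.78 CPM (-0.72 ± 0.12, 4.2e-05). An antisense gene shares exon sequence with KNG1. The libraries came from a directional kit, but the strand setting of the counting is not given in the sources used here, so reads of the pair may not be fully separated.

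F13B (chr1:197038741-197067267) was low throughout, at 1.32, 1.75 and 1.10 CPM in vehicle. It was at 0.508 and 0.634 CPM in high-dose dried ginger (-1.28 ± 0.32, adjusted p = 0.00099), 0.877, 0.516 and 0.612 in Scutellariae Radix (-1.04 ± 0.27, 0.00084) and 0.793, 0.924 and 0.902 in fresh ginger (-0.67 ± 0.25, 0.027). These 3 groups did not overlap the vehicle, whereas high-dose Sayeok-tang, at 0.822, 1.18 and 1.38 CPM, did and was not called. The fresh ginger call was lost without the first fresh ginger or the second vehicle library (adjusted p up to 0.195).

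F7, which starts the extrinsic pathway together with tissue factor, fell at 5 high doses, by -0.61 ± 0.10 in Sayeok-tang, -0.39 ± 0.100 in fresh ginger, -0.28 ± 0.11 in dried ginger, -0.48 ± 0.100 in Pinelliae Tuber and -0.23 ± 0.098 in Scutellariae Radix (adjusted p from 3.1e-06 to 0.047). F10, the protease that activates prothrombin, fell at the same 5 high doses by 0.19 to 0.35 on the log2 scale. F2 fell by 0.15 in high-dose Sayeok-tang and Scutellariae Radix and was not called in either ginger. F5, the cofactor of factor X, fell in high-dose Sayeok-tang (-0.26 ± 0.043), dried ginger (-0.17 ± 0.048) and Scutellariae Radix (-0.24 ± 0.043). Several of these calls rested on 1 library: that of F7 was lost in dried ginger without either of its libraries or the third vehicle library (adjusted p up to 0.165), and in Scutellariae Radix without its first or second or the first or the third vehicle library (up to 0.214). F10 was lost in fresh ginger without its second library (0.108) and in dried ginger without its first (0.118), and F5 in dried ginger without its second (0.0503). F12 (factor XII), at 3.86 ± 0.26 CPM in vehicle, was called at no dose of any extract against the vehicle, with high-dose values from -0.11 to 0.19.

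The 7 anticoagulant genes split, with TFPI rising and most inhibitors falling. SERPINA5 was the most widely lowered of these, called in 10 of the 18 comparisons with the vehicle. It had 368 ± 13 CPM in vehicle, 208 ± 10 in high-dose Sayeok-tang (-0.82 ± 0.037, adjusted p = 1e-22), 258 ± 1.6 in fresh ginger (-0.51 ± 0.037, 5.5e-16), 208 ± 3.5 in dried ginger (-0.82 ± 0.043, 7.2e-21) and 204 ± 5.6 in Scutellariae Radix (-0.85 ± 0.037, 9e-24). In Sayeok-tang it was already lower at the medium dose (-0.41 ± 0.037). The gene shares exon sequence with SERPINA4 on the same strand, so its counts depend on how reads were assigned.

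SERPIND1, heparin cofactor II, fell at all 6 high doses, most in Scutellariae Radix, from 198 ± 4.3 to 105 ± 1.0 CPM (-0.92 ± 0.033, adjusted p = 3.7e-27), and least in Bojungikgi-tang (-0.16 ± 0.036, 0.0052), a call lost without the first of its 2 libraries (0.358). SERPINC1, antithrombin, fell in high-dose Sayeok-tang (-0.49 ± 0.051), fresh ginger (-0.45 ± 0.051) and Scutellariae Radix (-0.27 ± 0.051) but was not called in dried ginger (-0.08 ± 0.057). PROS1, protein S, fell by 0.38 to 0.58 on the log2 scale at these 4 high doses. PROZ, protein Z, fell in high-dose fresh ginger (-0.46 ± 0.12) and Scutellariae Radix (-0.68 ± 0.12). PROC, the protein C zymogen, was at 68.8 ± 2.0 CPM in vehicle and was called once against it, in high-dose Pinelliae Tuber (-0.13 ± 0.044, adjusted p = 0.044). That call was lost without any 1 of the Pinelliae Tuber libraries or the first or the third vehicle library (up to 0.166). High against low dose PROC fell by 0.12 to 0.14 on the log2 scale in Sayeok-tang, dried ginger and Pinelliae Tuber, and each call was lost without any 1 of 2 to 5 libraries (up to 0.243).

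TFPI, the inhibitor of the tissue factor pathway, was at 233, 228 and 236 CPM in vehicle and at 284, 320 and 312 in high-dose fresh ginger (0.39 ± 0.046, adjusted p = 6.4e-10). It was at 304, 309 and 297 CPM in high-dose Scutellariae Radix (0.38 ± 0.046, 8.2e-10), 263, 276 and 271 in Sayeok-tang (0.22 ± 0.046, 0.00014) and 266 and 276 in dried ginger (0.22 ± 0.051, 0.0003). No library of these groups fell within the vehicle range. In medium-dose Scutellariae Radix the sign was opposite, at 209, 213 and 216 CPM (-0.13 ± 0.046, 0.043), though the call was lost without any 1 of the 6 libraries (up to 0.14).

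Among the genes of fibrinolysis, the activator PLAU rose at 5 high doses and its receptor PLAUR at 2, while the plasmin inhibitor SERPINF2 and VTN fell at 5. PLAU (chr10:73909177-73917497) encodes urokinase, which cleaves plasminogen to plasmin. It was at 3.16, 2.56 and 2.75 CPM in vehicle, 4.42, 4.57 and 3.63 in high-dose Sayeok-tang, 5.08, 5.54 and 6.08 in fresh ginger, 5.76 and 5.63 in dried ginger, 3.52, 5.05 and 4.55 in Pinelliae Tuber and 5.54, 6.23 and 5.20 in Scutellariae Radix. All 14 libraries were above the vehicle range. The rise was 0.57 ± 0.14 (adjusted p = 0.00082), 0.98 ± 0.13 (4.2e-08), 1.01 ± 0.15 (2.2e-07), 0.63 ± 0.14 (0.00096) and 1.00 ± 0.13 (1.5e-08) on the log2 scale. In high-dose Bojungikgi-tang, at 3.89 and 4.08 CPM, PLAU missed the threshold (0.50 ± 0.16, 0.055). C10orf55 overlaps its exons on the opposite strand.

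PLAUR (chr19:43646095-43670547), the receptor that holds urokinase at the cell surface, rose most in high-dose Scutellariae Radix. Its libraries were at 3.90, 4.64 and 4.59 CPM there and at 1.81, 1.75 and 2.12 in vehicle, with no overlap (1.21 ± 0.17, adjusted p = 3.7e-08). In high-dose dried ginger it was at 2.96 and 2.66 CPM (0.57 ± 0.20, 0.016), and in fresh ginger at 2.14, 3.05 and 1.76, which overlapped the vehicle and was not called. The dried ginger call was lost without its first or the second vehicle library (up to 0.13).

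SERPINF2 fell from 389 ± 14 CPM to 253 ± 5.7 in high-dose Sayeok-tang (-0.62 ± 0.041, adjusted p = 6.4e-17), 256 ± 16 in fresh ginger (-0.60 ± 0.041, 1e-16), 209 ± 5.0 in dried ginger (-0.89 ± 0.047, 1.8e-20) and 216 ± 1.3 in Scutellariae Radix (-0.85 ± 0.041, 4.4e-22). VTN, vitronectin, an adhesion protein of plasma that also binds urokinase's receptor, fell by 0.24 to 0.38 on the log2 scale at the same 4 high doses and by 0.28 in high-dose Pinelliae Tuber. SERPINF2 was also called lower in high-dose Pinelliae Tuber (-0.14), a call lost without its second library or the third vehicle library (up to 0.077). Against the vehicle PLG was called once, lower in high-dose fresh ginger at 0.555, 0.249 and 0.588 CPM (-0.77 ± 0.29, adjusted p = 0.025), a call lost without the second fresh ginger or the second vehicle library (up to 0.254). High against low dose it was lower in fresh ginger (-1.14 ± 0.27, 0.0005), dried ginger (-0.75 ± 0.31, 0.042) and Scutellariae Radix (-0.69 ± 0.26, 0.021), and each of the last 2 calls was lost without any 1 of 3 libraries (up to 0.337 and 0.15). PLAT was called in no comparison with the vehicle.

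Of the 9 complement activation genes, 5 to 7 fell at the 4 high doses, and MASP1, MBL2, C1S and C8G behaved differently from the others. At the high doses of Sayeok-tang, fresh ginger, dried ginger and Scutellariae Radix, 19.9%, 23.6%, 22.8% and 28.1% of all genes tested were called lower. C5, from which the chemoattractant C5a is cut, fell from 157 ± 4.4 CPM in vehicle to 119 ± 3.8 in high-dose Sayeok-tang (-0.41 ± 0.032, adjusted p = 3.2e-14), 102 ± 5.3 in fresh ginger (-0.63 ± 0.033, 6.9e-21), 87.4 ± 1.2 in dried ginger (-0.85 ± 0.038, 4e-23) and 108 ± 2.2 in Scutellariae Radix (-0.54 ± 0.033, 7.5e-19). In high-dose Pinelliae Tuber it was slightly higher (0.11 ± 0.032, 0.013), a call lost without the first or the third vehicle library (up to 0.077). C3 went from 1754 ± 40 CPM in vehicle to 1271 ± 39 in high-dose Scutellariae Radix (-0.46 ± 0.043, 7.9e-13) and fell by 0.19 to 0.30 in Sayeok-tang and the gingers. CFB, factor B of the alternative pathway, was lower at all 6 high doses, by 0.18 in Bojungikgi-tang, where the call was lost without the second of its 2 libraries (0.128), to 0.60 in Sayeok-tang. Its exons overlap those of C2 on the same strand.

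C6 (chr5:41142234-41261438) was at 1.03, 0.669 and 1.02 CPM in vehicle. It was at 0.392, 0.495 and 0.330 in high-dose Sayeok-tang (-1.15 ± 0.29, adjusted p = 0.0012), 0.555, 0.426 and 0.510 in fresh ginger (-0.86 ± 0.28, 0.01), 0.339 and 0.296 in dried ginger (-1.49 ± 0.36, 0.00065) and 0.386, 0.556 and 0.421 in Scutellariae Radix (-0.99 ± 0.29, 0.0029). The groups did not overlap the vehicle, but at these levels each value rests on few reads, and the fresh ginger call was lost without its second library (0.0504).

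MASP1 (chr3:187217285-187292022), which encodes a protease that starts the lectin pathway, rose in both gingers. It was at 5.30, 6.95 and 7.07 CPM in vehicle, 15.1, 13.4 and 15.1 in high-dose fresh ginger (1.17 ± 0.091, adjusted p = 7.9e-15), 12.1 and 13 in dried ginger (0.96 ± 0.10, 1.1e-10) and 8.07, 7.27 and 8.54 in Sayeok-tang (0.30 ± 0.098, 0.011). The Sayeok-tang call was lost without its own replicate 3 or the first vehicle library (up to 0.151). High-dose Scutellariae Radix, at 6.84, 5.40 and 6.31 CPM, overlapped the vehicle and was not called (-0.06 ± 0.10). An antisense gene shares exon sequence with MASP1.

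MBL2 (chr10:52765380-52771700) encodes mannose-binding lectin, the recognition protein that MASP1 binds. Its vehicle libraries were close, at 12, 11.6 and 11.9 CPM. It was highest in Scutellariae Radix at the medium dose, at 21.0, 21.8 and 22.5 CPM (0.88 ± 0.080, adjusted p = 1e-11), and the low dose, at 19.9, 19.6 and 21.7 (0.78 ± 0.081, 1.8e-09), while at the high dose it was at 11.9, 14.4 and 12.5 and was not called. High against low dose, MBL2 was lower in Scutellariae Radix (-0.66 ± 0.079, 1.3e-09), a test that leaves out the vehicle. It rose in high-dose Bojungikgi-tang, at 19.0 and 17.3 CPM (0.62 ± 0.091, 7.8e-06), Sayeok-tang (0.41 ± 0.083) and Pinelliae Tuber (0.42 ± 0.083), and fell in fresh ginger, at 7.89, 10.9 and 10.3 CPM (-0.28 ± 0.089, 0.0075), and dried ginger, at 8.64 and 8.46 (-0.47 ± 0.10, 0.00022). In low-dose fresh ginger, at 14.3, 15.3 and 15.1 CPM, its adjusted p rounded to 0.05, and the call was lost without any 1 of the 6 libraries (up to 0.223). The call in high-dose fresh ginger was lost without its first library (0.148).

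C1R and C1S, the paired proteases of the classical pathway, lie within 104.3 kb on chromosome 12 and did not move alike. C1R fell at the 4 high doses by 0.38 to 0.59 on the log2 scale, from 4.83 ± 0.62 CPM, with the Sayeok-tang call lost without the third vehicle library (0.0932). C1S was at 19.9, 21.7 and 20.5 CPM in vehicle, 18.1, 17.4 and 17.6 in high-dose fresh ginger (-0.23 ± 0.057, adjusted p = 0.00091), 16.6, 15.7 and 16.5 in Scutellariae Radix (-0.35 ± 0.058, 1.6e-06), 26.2 and 26.6 in dried ginger (0.35 ± 0.062, 6.5e-06) and 22.9, 24.4 and 23.5 in Pinelliae Tuber (0.19 ± 0.055, 0.015). The first 2 of these groups were wholly below the vehicle and the last 2 wholly above it, but the Pinelliae Tuber call was lost without its own replicate 2 or the first or the third vehicle library (up to 0.0873). C1S shares exon sequence with EMG1, and C1R with C1RL. C8G, a subunit of the membrane attack complex, rose in high-dose dried ginger (0.60 ± 0.20, 0.01) and in medium-dose Scutellariae Radix (0.51 ± 0.18, 0.033), the latter with libraries that overlapped the vehicle. The first call was lost without the second dried ginger library (0.0591) and the other without any 1 of 4 libraries, replicates 1 and 3 of each group (up to 0.228).

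All 4 complement control genes fell at each of the 4 high doses. In these comparisons 19.9% to 28.1% of all genes tested were called lower, and the group has only 4 members. C4BPA (chr1:207104262-207144972) encodes the alpha chain of C4b-binding protein, which inhibits the classical pathway. It was at 21.6, 20.7 and 23.0 CPM in vehicle, 13.9, 12 and 11.9 in high-dose Sayeok-tang, 11.8, 13.2 and 14.6 in fresh ginger, 13.7 and 12.7 in dried ginger and 9.90, 10.6 and 10.5 in Scutellariae Radix. It was also lower in Bojungikgi-tang, at 15.6 and 17.1 CPM, and Pinelliae Tuber, at 15.8, 17.5 and 17.1. No high-dose library reached the vehicle range, and the log2 fold changes ran from -0.37 ± 0.071 in Pinelliae Tuber (adjusted p = 0.00019) to -1.07 ± 0.076 in Scutellariae Radix (1.9e-16). Without the first of its 2 libraries the Bojungikgi-tang call was lost (0.0927).

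C4BPB, the beta chain of the same protein, was called in 4 of the 6 high doses, from -0.32 ± 0.069 in dried ginger to -0.56 ± 0.062 in Sayeok-tang, and not in Bojungikgi-tang (-0.05 ± 0.067) or Pinelliae Tuber (-0.05 ± 0.060). CFI, the protease factor I, fell from 171 ± 3.9 CPM to 94.7 ± 1.0 in high-dose dried ginger (-0.85 ± 0.048, adjusted p = 1.6e-19) and by 0.48 to 0.69 on the log2 scale in the other three. SERPING1, the C1 inhibitor, which also controls the contact system, was lower at all 6 high doses. Its change ran from -0.36 ± 0.10 in Bojungikgi-tang (adjusted p = 0.028) to -0.82 ± 0.11 in dried ginger (2.1e-08). The Bojungikgi-tang call was lost without either of its libraries or the first or the third vehicle library (up to 0.245).

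**Figure D3:**
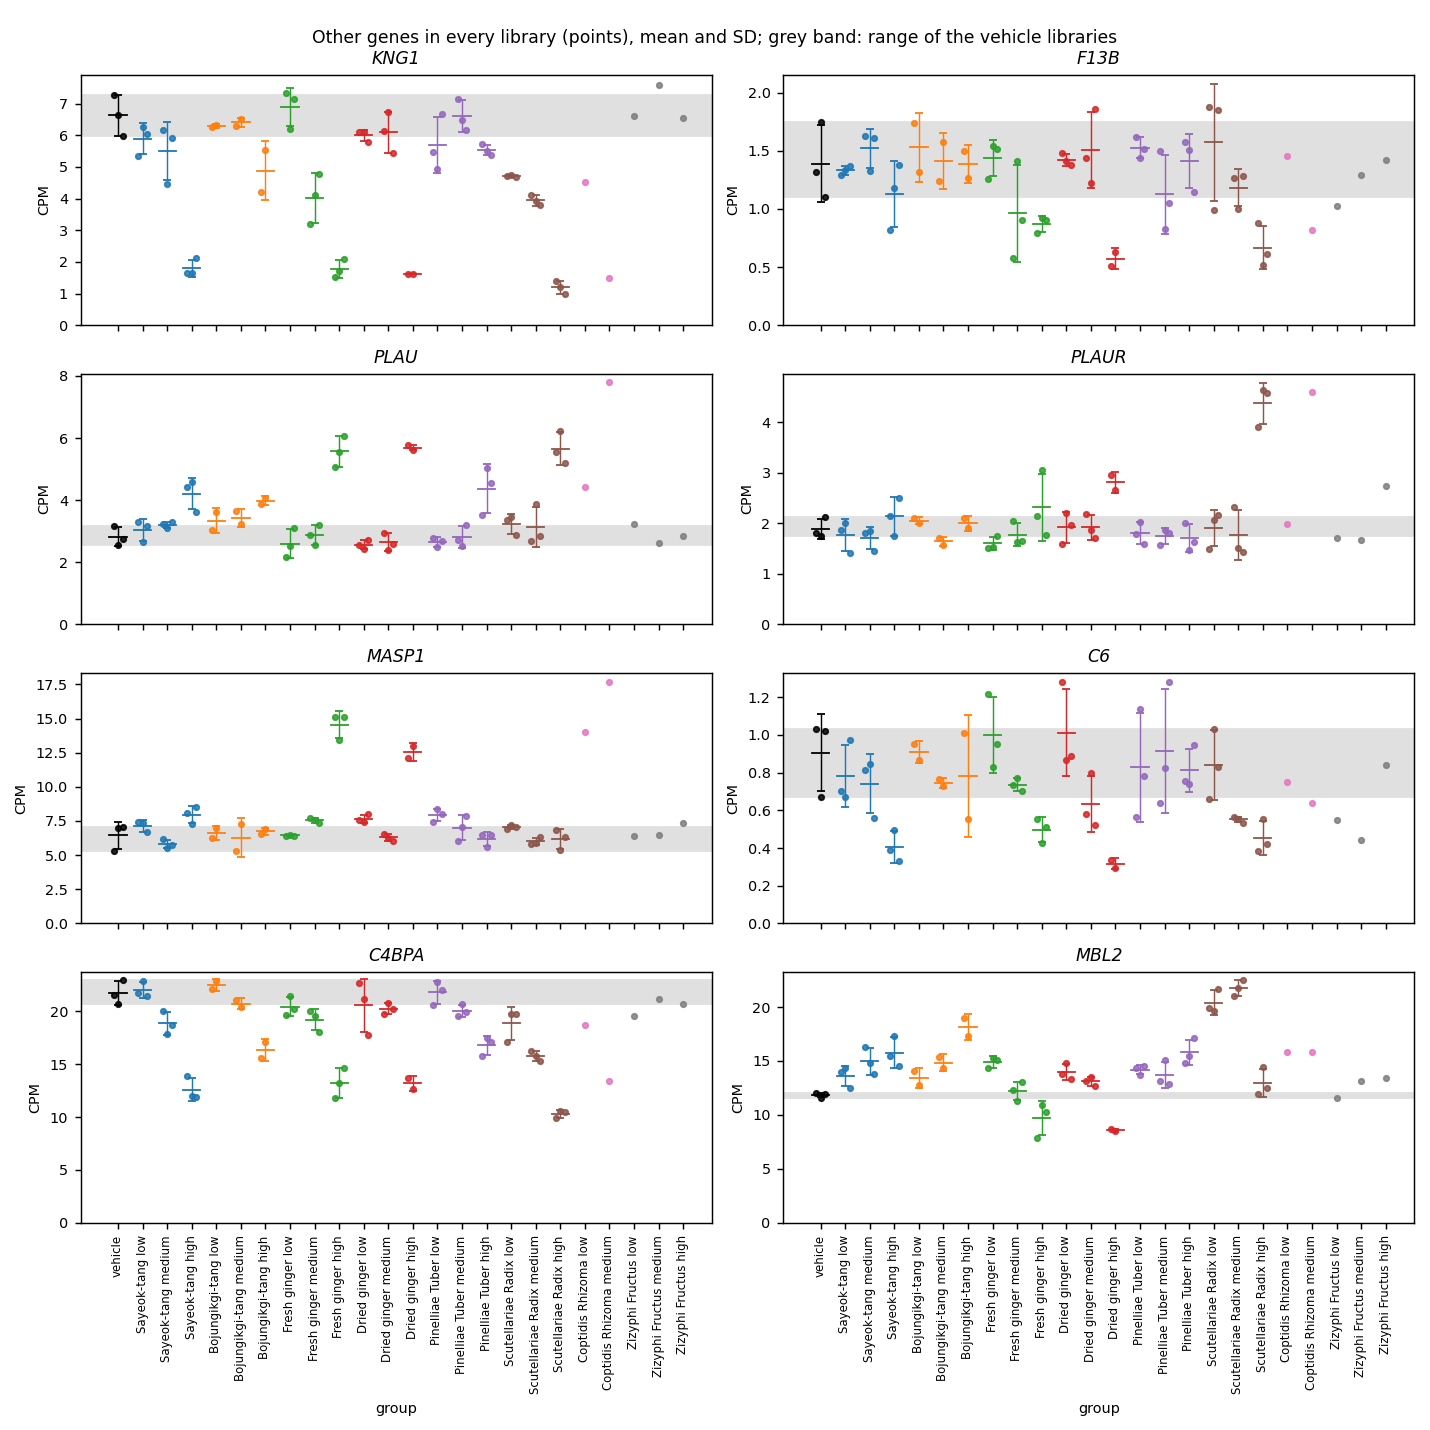
CPM (vertical axes) of 8 genes in every library of the 24 groups (horizontal axis), with the mean and SD of groups that have replicates and a grey band for the range of the 3 vehicle libraries. KNG1 and C4BPA drop under the band at high doses, PLAU rises above it, MASP1 is high in both gingers and Coptidis Rhizoma, and MBL2 is highest at the low and medium doses of Scutellariae Radix.

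Position and cofactor need cut across these roles. F7, F10 and PROZ lie within 66.6 kb on chromosome 13, and C4BPB and C4BPA within 56.1 kb on chromosome 1. F7 and F10 were both lower in high-dose Sayeok-tang (-0.61 and -0.34) and Pinelliae Tuber (-0.48 and -0.28), where PROZ was not called (0.05 ± 0.11 and -0.13 ± 0.12). In high-dose dried ginger, too, F7 and F10 were called lower and PROZ was not. In high-dose fresh ginger and Scutellariae Radix, F7, F10 and PROZ were all called lower. The 6 genes whose proteins need vitamin K-dependent carboxylation (F2, F7, F10, PROC, PROS1 and PROZ) had 4, 4, 3 and 5 members lower and none higher at the high doses of Sayeok-tang, fresh ginger, dried ginger and Scutellariae Radix, where 19.9%, 23.6%, 22.8% and 28.1% of all genes were lower. The F7 and F10 calls in dried ginger, that of F10 in fresh ginger and that of F7 in Scutellariae Radix were each lost without 1 library, as given above. The medians of the 6 genes were -0.24, -0.29, -0.24 and -0.29. GGCX, the carboxylase itself, fell from 130 ± 3.1 CPM to means of 91.8 to 98.9 in these 4 groups.

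Extracts that share a sample prefix were compared directly at high dose. Sayeok-tang against Bojungikgi-tang had 21 of the 36 genes lower and none higher in Sayeok-tang (26.2% of all genes called, 13.2% higher and 13% lower). KNG1 differed most, at 1.80 ± 0.27 against 4.88 ± 0.94 CPM (-1.43 ± 0.16, adjusted p = 1.6e-09), followed by FGA (-1.24 ± 0.052, 5e-23), FGG (-1.21 ± 0.071, 3.1e-18) and FGB (-0.96 ± 0.060, 3.1e-17). The libraries of the called genes did not overlap between the extracts, but the same libraries gave the calls, so this is not separate support. The share of all genes tested without overlap is not given here. The calls of C6 (-0.95 ± 0.33) and C1R (-0.35 ± 0.12) were among 5 that were lost when 1 library was left out.

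Fresh against dried ginger had 8 genes higher and 3 lower in fresh ginger (23.5% of all genes called, 13.2% higher and 10.2% lower), 7 in all without the first dried ginger library. The fall of FGA did not differ (0.03 on the log2 scale), but FGB was higher (0.23 ± 0.064, adjusted p = 0.007) and FGG lower (-0.21 ± 0.073, 0.027) in fresh ginger. Both calls were lost without either dried ginger library, that of FGB also without the second fresh ginger library (up to 0.0571) and that of FGG without the first (up to 0.146). C1S differed most, at 17.7 ± 0.39 against 26.4 ± 0.33 CPM (-0.58 ± 0.062, 5e-10), and SERPINC1 was also lower in fresh ginger (-0.37 ± 0.057, 1.9e-06). SERPINA5 (0.31 ± 0.042), SERPINF2 (0.29 ± 0.047), SERPIND1 (0.28 ± 0.037) and F5 (0.26 ± 0.048) were higher.

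Pinelliae Tuber against Scutellariae Radix had 22 genes higher and 5 lower in Pinelliae Tuber (55.9% of all genes called, 28.7% higher and 27.2% lower). KNG1 was at 5.53 ± 0.17 against 1.20 ± 0.20 CPM (2.20 ± 0.16, adjusted p = 1.8e-16), and F13B (1.06 ± 0.26, 0.00059) and C6 (0.84 ± 0.29, 0.011) followed. PLAUR (-1.35 ± 0.17, 2.8e-09), TFPI (-0.42 ± 0.045, 9.7e-11), PLAU (-0.37 ± 0.12, 0.01), F12 (-0.30 ± 0.13, 0.044) and F7 (-0.26 ± 0.10, 0.028) were lower in Pinelliae Tuber. Those of F7, PLAU, F12 and C6 were each lost when 1 of 2 to 5 libraries was left out, with adjusted p of up to 0.123, 0.129, 0.141 and 0.0602.

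**Figure D4:**
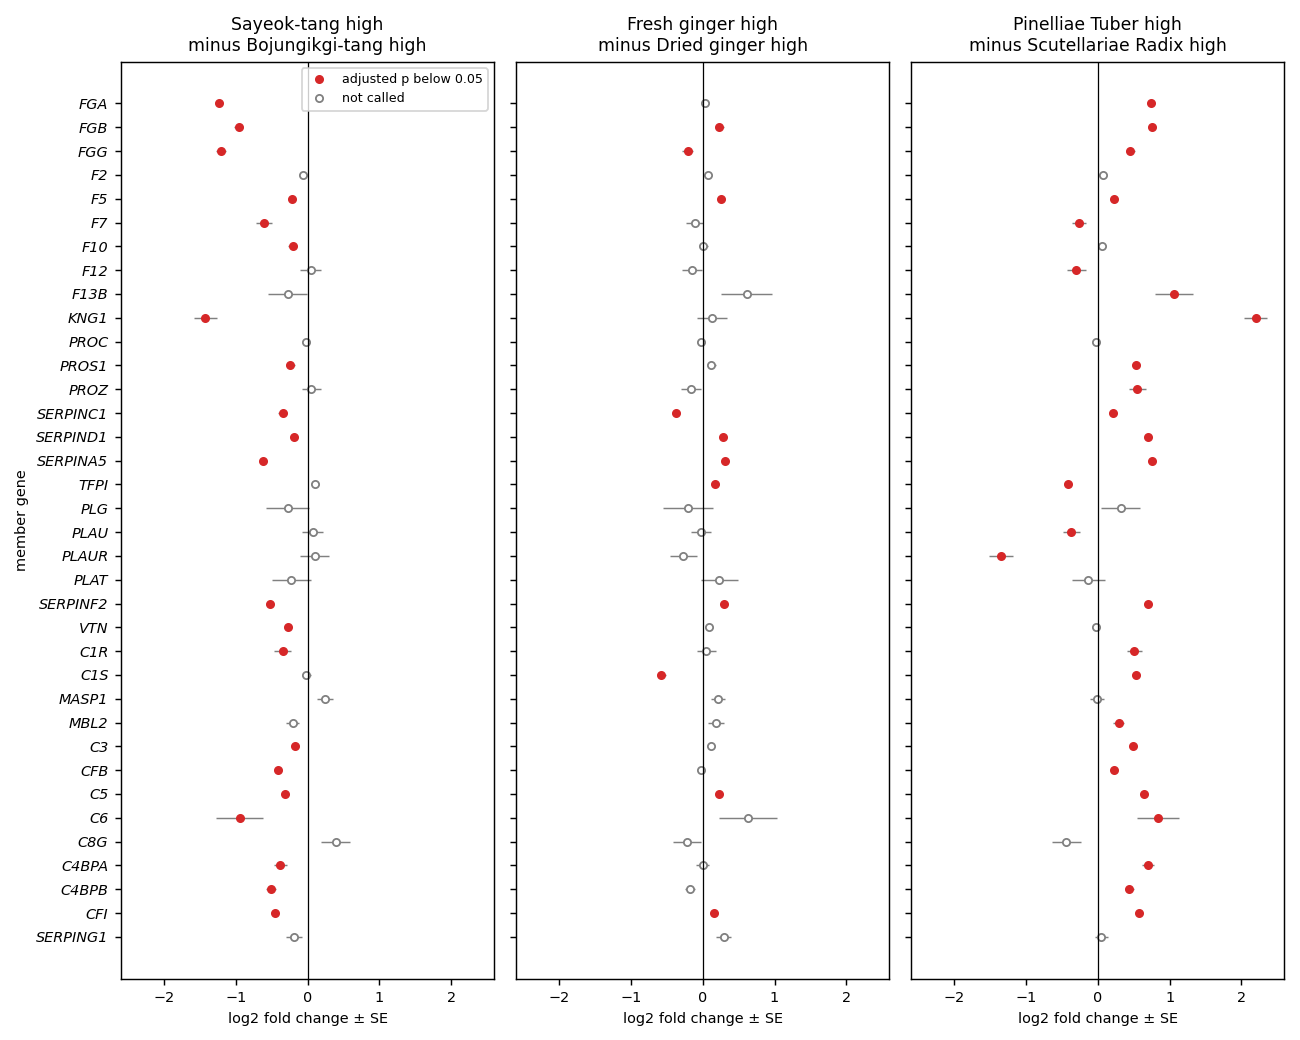
Log2 difference and SE (horizontal axes) of each of the 36 genes (vertical axis) between 2 extracts at 500 µg/mL, for Sayeok-tang minus Bojungikgi-tang, fresh minus dried ginger and Pinelliae Tuber minus Scutellariae Radix; filled points have an adjusted p below 0.05. Called points of the first panel all lie left of 0, those of the middle panel lie within 0.58 of 0, and KNG1 is farthest right in the last.

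Coptidis Rhizoma and Zizyphi Fructus had 1 library per dose, so their values have no replicate check and no test. Medium-dose Coptidis Rhizoma, at 56 µg/mL, had 3 of the 36 genes at least 2-fold higher and 4 at least 2-fold lower and outside the vehicle range, where 8.22% of all genes passed that mark (4.36% higher and 3.86% lower). KNG1 was at 1.5 CPM (a log2 fold change of -2.14), FGA at 337 (-1.56), FGG at 375 (-1.46) and FGB at 110 (-1.25). PLAU was at 7.79 CPM (1.46), MASP1 at 17.7 (1.45) and PLAUR at 4.60 (1.28), the highest or second highest level of each over all libraries. At 11.2 µg/mL MASP1 passed the mark alone, at 14.0 CPM (1.12; 1.34% of all genes), and summed fibrinogen was at 1515 CPM, against 822 at the medium dose. Zizyphi Fructus had no gene past 2-fold at the high (0.61%) or low (0.839%) dose. At its medium dose C6, at 0.443 CPM (-1.02; 0.588%), was the only gene of the 36 past the mark, and it was not past it without the first or the third vehicle library.

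Of 52 other genes of these pathways, 31 had enough reads to be tested. At the high doses of Sayeok-tang, fresh ginger, dried ginger and Scutellariae Radix, 8, 9, 9 and 9 of the 31 rose and 14, 14, 14 and 15 fell, with medians of -0.10, -0.16, -0.07 and -0.11. Of all genes tested, 20.3%, 24.3%, 23.3% and 28.7% rose and 19.9%, 23.6%, 22.8% and 28.1% fell in these comparisons, so the share of the 31 that rose was near that of all genes. In high-dose Pinelliae Tuber 3 rose and 5 fell (9.14% and 6.57% of all genes), and in Bojungikgi-tang 1 and 1 (2.24% and 2.31%). Those too low to test included F9, whose highest library had 0.0729 CPM.

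SERPINE2, an inhibitor of urokinase and thrombin, rose in the groups in which fibrinogen fell. It was at 28.3, 26.8 and 28.0 CPM in vehicle, 44.5, 45.4 and 47.3 in high-dose Sayeok-tang (0.72 on the log2 scale), 66.2, 67.9 and 58.7 in fresh ginger (1.22), 66.2 and 65.2 in dried ginger (1.25) and 87.2, 89.9 and 89.3 in Scutellariae Radix (1.68). No library of these groups overlapped the vehicle. In the same groups CD55, which protects cells from complement, rose by 0.54 to 1.59 on the log2 scale. TFPI2, a relative of TFPI, rose in high-dose Scutellariae Radix to 3.05, 2.90 and 2.41 CPM, from 0.616, 0.780 and 0.668 in vehicle (2.01).

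Several secreted factors fell beside the 36 genes. CPB2, which slows fibrinolysis, fell by 0.47 in high-dose Sayeok-tang to 1.17 in Scutellariae Radix. C8A and C8B, subunits of the membrane attack complex, fell by 0.86 to 1.73 in the 4 groups. A2M, a broad protease inhibitor, fell from 3471 ± 78 CPM to 2193 in high-dose Sayeok-tang (-0.66), and also in fresh ginger (-0.45), dried ginger (-0.50) and Scutellariae Radix (-0.58). C4A and C4B were lower in all 4 groups, by 0.14 to 0.34, but they are near-identical copies whose reads cannot be separated with certainty. In dried ginger the call of C4A was lost without its first library (adjusted p = 0.24), and that of C4B without its second or the second or the third vehicle library (up to 0.637).

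**Figure D5:**
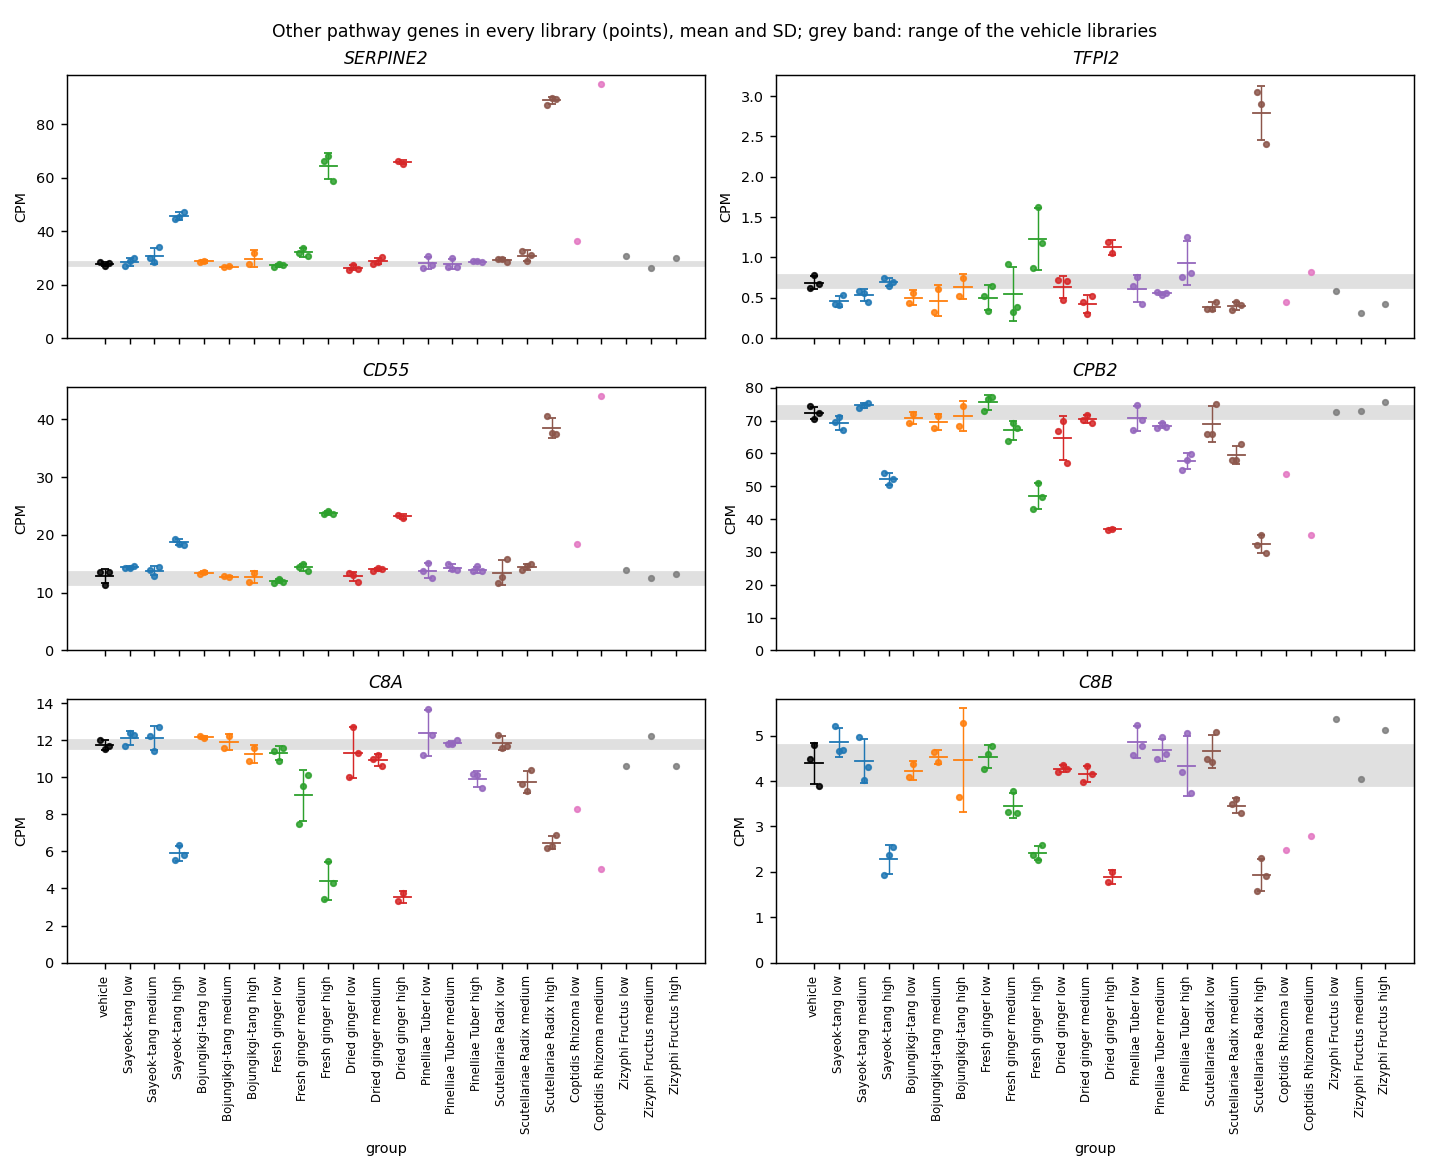
CPM (vertical axes) of 6 further pathway genes in every library of the 24 groups (horizontal axis), with the mean and SD of groups that have replicates and a grey band for the range of the 3 vehicle libraries. SERPINE2 and CD55 rise far above the band at the high doses of Sayeok-tang, both gingers and Scutellariae Radix and at the medium dose of Coptidis Rhizoma, and CPB2, C8A and C8B fall below it.

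Of 14 genes of the acute phase and its interleukin 6 signal, 9 had enough reads to be tested. In high-dose Sayeok-tang, fresh ginger, dried ginger and Scutellariae Radix 1, 1, 1 and 3 of the 9 rose and 5, 6, 6 and 5 fell. Those comparisons called 20.3%, 24.3%, 23.3% and 28.7% of all genes tested higher and 19.9%, 23.6%, 22.8% and 28.1% lower. HP, haptoglobin, fell from 192 ± 3.1 CPM to 91.1, 74.5, 73.4 and 103 in high-dose Sayeok-tang, fresh ginger, dried ginger and Scutellariae Radix, and HPX, hemopexin, fell by 1.01 to 1.59 on the log2 scale. IL6R, the interleukin 6 receptor, rose by 0.88 to 1.64 in the same groups, and SERPINA3 fell in Sayeok-tang (-0.54) and the gingers (-0.48 and -0.40) but rose in Scutellariae Radix (0.23), a call lost without its own replicate 3 or the first or the second vehicle library (adjusted p up to 0.114). FGL1 and the orosomucoid genes ORM1 and ORM2 changed less, by -0.11 to -0.05 for FGL1 and -0.35 to -0.03 for the other two, and in Sayeok-tang neither ORM1 (-0.08, adjusted p = 0.23) nor ORM2 (-0.03, 0.63) was called. The liver factor HNF4A fell by 0.14 to 0.42 in these 4 groups, and albumin by 0.21 to 0.36, with the HNF4A call in dried ginger lost without its second library (0.184). The part of these changes in those of the 36 genes was not tested. HNF4A and albumin are 2 of the 9 hepatocyte markers checked, and the changes of the others are not given here. LYZ, at 1325 ± 39 CPM in vehicle, made up most of the summed level of the leukocyte markers. The leukocyte markers summed to 1324 to 1404 CPM in vehicle and 1511 to 2370 in the libraries of these 4 groups. Among them LYZ and CD68 rose in high-dose Sayeok-tang (0.52 and 0.76), fresh ginger (0.73 and 0.68) and Scutellariae Radix (0.35 and 0.41), and CD68 in dried ginger (1.10), where LYZ was called at 0.13 only without the 3 libraries left out of the added fit. CD14 fell in Sayeok-tang (-0.57, adjusted p = 0.0042), fresh ginger (-0.70, 0.00052) and Scutellariae Radix (-0.63, 0.0011) and was not called in dried ginger (-0.30, 0.18). Their part in the results was likewise not tested.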

How the data were processed

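RNA-seq libraries of HepG2 cells were analysed from expected counts per Ensembl gene ID that the authors deposited for the whole series. Per the submitters' processing notes, FastQC 0.11.9, Trim Galore 0.6.5, STAR 2.7.3a, RSEM 1.3.3 and the build GRCh38 (hg38) were used; the annotation release and the strand setting are not given in the sources used here. Libraries were made with a directional kit, per the labels' protocols. The table's 58 columns that match the labels were used, and 209 other columns were not analysed here. Of nonzero values 75.26% were whole, and all were rounded to whole counts. Symbols for 57055 of 60675 IDs came from a gene name table, with GENCODE 29 for coordinates and exon lengths, and promoters came from RefSeq.

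The 13945 genes that reached 1 CPM in 3 or more libraries were tested with edgeR 4.0.16 in R 4.3.3: TMM scaling, a model of 24 group means fitted to the 58 libraries, the quasi-likelihood test and Benjamini-Hochberg adjustment within each comparison, with 0.05 as the threshold. Adjusted p-values in the text are from this test unless DESeq2 1.42.0 is named. Levels are TMM-scaled CPM (factors 0.878 to 1.03), fold changes are on the log2 scale, and SE is the log2 fold change divided by the square root of F. The biological coefficient of variation was 4.25%. The code was tested on simulated data. Tables and figures were made with Python 3.11.15, pandas 2.3.3, numpy 2.4.6 and matplotlib 3.10.9.

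Groups follow the sample labels. Replicate numbers were not treated as pairs: over 27 comparisons, deviations of same-numbered libraries correlated at -0.157 to 0.206, and in none was every pair above 0.1. Alternatives were RLE scaling, DESeq2, no filter, only the 2 groups compared, a replicate block, each library left out and, chosen after seeing the data, 3 libraries left out. Named genes are the fibrinogen chains, genes called at 2-fold or more at a high dose, those below 1 CPM, and up to 4 rises and falls per comparison (up to 3 among 52 other pathway genes). A few genes chosen this way are not reported here. Further members were described by role, and A2M, C4A, C4B and GGCX after their values were seen. The members and lists were chosen with earlier results of these data known. Wortmannin, a control of the series text, was not analysed here.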

Additional observations from a re-analysis of the deposited data

Results flagged for a closer look

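For 9 gene and extract-pair combinations the difference between 2 extracts at 500 µg/mL was called in edgeR's quasi-likelihood test and met a further mark. Either the difference was at least 2-fold, or the extracts were called in opposite directions against the vehicle. Sayeok-tang and Bojungikgi-tang differed in FGA by -1.24 (adjusted p = 5e-23), with own values of -1.19 and 0.05, and in FGG by -1.21 (3.1e-18), with -1.18 and 0.03. KNG1 differed by -1.43 (1.6e-09), with -1.87 and -0.44. Fresh and dried ginger differed in C1S by -0.58 (5e-10), with -0.23 and 0.35.

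Pinelliae Tuber and Scutellariae Radix differed in KNG1 by 2.20 (edgeR, adjusted p = 1.8e-16), with own values of -0.26 and -2.46, in F13B by 1.06 (0.00059), with 0.02 and -1.04, and in PLAUR by -1.35 (2.8e-09), with -0.14 and 1.21. They also differed in C1S by 0.53 (4.3e-11), with 0.19 and -0.35, and in C5 by 0.65 (8.6e-22), with 0.11 and -0.54. The calls of C1S and C5 in Pinelliae Tuber against the vehicle were lost without any 1 of 3 and 2 libraries (up to 0.0873 and 0.077). The opposite directions of these 2 genes rest on those calls. In every one of these 9 the libraries of the 2 extracts did not overlap, and the share of all genes tested without overlap is not given here. The 9 were picked by the difference between the same libraries, so their lack of overlap is not separate support. The own values of a pair share the vehicle libraries.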

How the results depend on the processing

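Of 344 recomputed counts of called genes, 315 stayed within 1.5 times the reported count, and none of 5891 recomputed log2 fold changes of a called or fibrinogen gene turned its direction past the threshold. Of these, 295 lost and 11 gained a call. In low-dose Sayeok-tang the count of 0 became 1 with DESeq2, with no filter, with the replicate block and without the 3 libraries left out of the added fit, and without those medium-dose Sayeok-tang had 9 in place of 5. Low-dose fresh ginger had 0 in place of 1 with DESeq2 and RLE scaling, low-dose Scutellariae Radix 4 in place of 8 in a fit of only the 2 groups, and Bojungikgi-tang high against low 3 with no filter and 1 in a fit of only the 2 groups, in place of 5. At 1.5-fold in place of 2-fold, Coptidis Rhizoma had 14 genes at the medium and 4 at the low dose, and low-dose Zizyphi Fructus 1.

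With each library left out in turn, counts were 2 to 6 in medium-dose Sayeok-tang, 2 to 6 in high-dose Bojungikgi-tang, 7 to 12 in medium-dose and 0 to 0 in low-dose fresh ginger, and 3 to 5 in medium-dose dried ginger. They were 2 to 4 in Bojungikgi-tang high against low, 7 to 12 in fresh against dried ginger and 0 to 1 in medium-dose Zizyphi Fructus. The replicate block kept 26 of 27 counts within 1.5 times, the other being the 1 call in low-dose Sayeok-tang. Of 456 calls of single genes, 88 were lost with some 1 library left out, all of them changes of less than 2-fold. In the high against low comparison of dried ginger, F10, PLG, PROC and PROZ lost their calls without the same 3 libraries (adjusted p of 0.13, 0.18, 0.083 and 0.054), as did SERPINF2 in low-dose Scutellariae Radix (0.063). The causes were not tested. C6, PLG, PLAT and F13B were below 1 CPM in 50, 53, 16 and 14 of 58 libraries, and small changes in them may not be detectable at this depth.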

Other observations

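C7, a subunit of the membrane attack complex, fell in high-dose Sayeok-tang (-1.24), dried ginger (-1.66) and Scutellariae Radix (-1.22). PROCR, the receptor of protein C, rose in high-dose fresh ginger (0.73), dried ginger (0.81) and Scutellariae Radix (1.37). ANXA2 and S100A10, which together form a surface receptor for plasminogen, rose at the high doses of Sayeok-tang (0.60 and 0.48), fresh ginger (0.76 and 0.64), dried ginger (0.56 and 0.53) and Scutellariae Radix (0.47 and 0.32). F3, tissue factor, rose in Sayeok-tang (0.58), fresh ginger (0.35) and dried ginger (0.28) and was not called in Scutellariae Radix (0.05). All values are log2 fold changes against the vehicle from edgeR's quasi-likelihood test. C7, PROCR, ANXA2, S100A10 and F3 were not rechecked with other settings or with libraries left out.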
